A study of Homo sapiens with 8 samples.

Results

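The 33 genes described here encode the enzymes that carry carbon into, around and out of the tricarboxylic acid (TCA) cycle: 24 genes from the pyruvate dehydrogenase complex to malate dehydrogenase, and 9 genes of anaplerosis, the refilling and draining of the cycle. They were taken as a list of named genes, by summing the Ensembl transcripts of each gene, and all 33 were found among the 58592 genes in the files. RNA was sequenced from HEK293T, a line from human embryonic kidney into which the SV40 large T antigen was introduced. There were 4 libraries of HEK293T/17 cells transfected with a construct for tagged human KCNQ3, which in neurons forms potassium channels of the M-current, and 4 libraries of normal cells of the line. RNA was taken 48 hours after transfection. The transfection text stands with every sample in the labels, and the sources used here do not say whether control cells received reagent or an empty plasmid. All libraries came from 1 cell line, and a transient transfection leaves cells with differing amounts of the construct. The series calls the libraries biological replicates, but nothing says that they came from separately started cultures, so the p-values measure the spread between these libraries, which may be technical.

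In the TCA cycle, acetyl-CoA made from pyruvate joins oxaloacetate to give citrate, which is oxidised back to oxaloacetate while electrons pass to the respiratory chain. Succinyl-CoA ligase is the step that makes a nucleoside triphosphate directly: SUCLG1 pairs with SUCLA2 in the ADP-specific enzyme and with SUCLG2 in the GDP-specific one. Anaplerotic enzymes return carbon to the cycle from pyruvate, glutamate and other amino acids, and PCK1 and PCK2 withdraw oxaloacetate as phosphoenolpyruvate in the cytosol and the mitochondrion.

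KCNQ3 had 15283, 15874, 19709 and 18603 counts in overexpression libraries, against 4, 5, 0 and 2 in control libraries. Its groups stood far apart, with 684 ± 88 CPM under overexpression and 0.0996 ± 0.080 CPM in controls (SD, n = 4 each; CPM scale a library's TMM-adjusted total to 1000000). The library totals lay between 24020097 and 30734915 estimated counts. Every one of 7 genes known to mark the HEK293 line was at 1 TPM or more in all libraries, where TPM are levels per transcript length, scaled to 1000000 in a library. Summed levels of hepatocyte markers stayed at or under 0.750 TPM, of fibroblast markers at or under 0.828 TPM and of blood cell markers at or under 0.551 TPM in any library. In bulk RNA, fewer cells with a transcript and less of it per cell cannot be told apart.

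Of the 33 genes 1, PCK2, passed the test, and it fell under overexpression. Of the 33 genes, 32 had enough counts to be tested, and ME3 did not. The quasi-likelihood test of edgeR, with p adjusted by Benjamini-Hochberg over all 19280 genes tested, called 58 genes, or 0.301% of them. It called 37, or 0.192%, as lower under overexpression, and PCK2 was 1 of these. At an unadjusted p under 0.05 there were 7 of the 32 genes, 4 higher and 3 lower, against 19.4% of all genes tested. The CPM of the groups did not overlap for 2 of the 32, or 6.25%, against 11.6% of all genes tested. DESeq2 also called 1 of the 32, PCK2, against 9.90% of the 13655 genes to which it gave an adjusted p. The median log2 fold change, overexpression over control, was 0.02 for the 32 genes and 0.01 over all genes tested, and the 32 ran from -0.33 to 0.15. For 26 of the 32 it lay within 0.10 of 0. Summed over the 33 genes, the level was 2568 ± 32 TPM under overexpression and 2564 ± 117 TPM in controls (SD, n = 4 each).

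**Figure D1:**
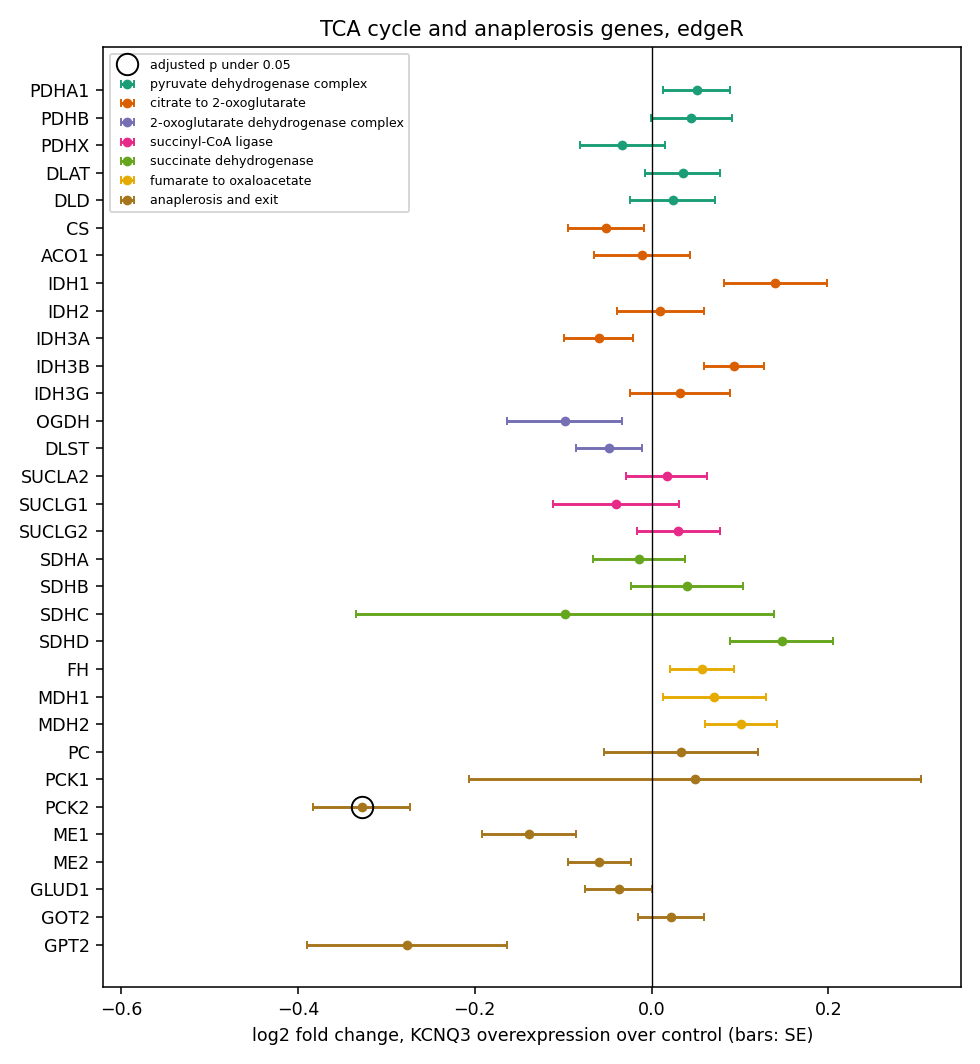
log2 fold change of each of the 32 tested genes, KCNQ3 overexpression over control (x axis), with the standard error as a bar and colours for the step of the pathway. PCK2, circled, at -0.33 is the gene with an adjusted p under 0.05, and SDHC and PCK1 have the widest bars, with standard errors of 0.24 and 0.26.

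On the length-scaled TPM scale the 2 malate dehydrogenases led the list. MDH2, the mitochondrial enzyme, stood at 237 ± 8.4 TPM under overexpression and 230 ± 13 TPM in controls, and MDH1, the cytosolic one, at 237 ± 22 TPM under overexpression and 219 ± 22 TPM in controls. Citrate synthase (CS) and the iron-sulfur subunit of succinate dehydrogenase (SDHB) came next, at means of 180 and 179 TPM over all libraries. At the low end were pyruvate carboxylase (PC) at 4.55 TPM, PCK1 at 2.15 TPM and the mitochondrial malic enzyme ME3 at 0.206 TPM over all libraries. Going down this order, 23 of the 32 neighbouring pairs overlapped in their control values, so their order was not resolved. ME3 had 4 to 11 counts in overexpression libraries and 6 to 13 in control libraries, too few to test.

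**Figure D2:**
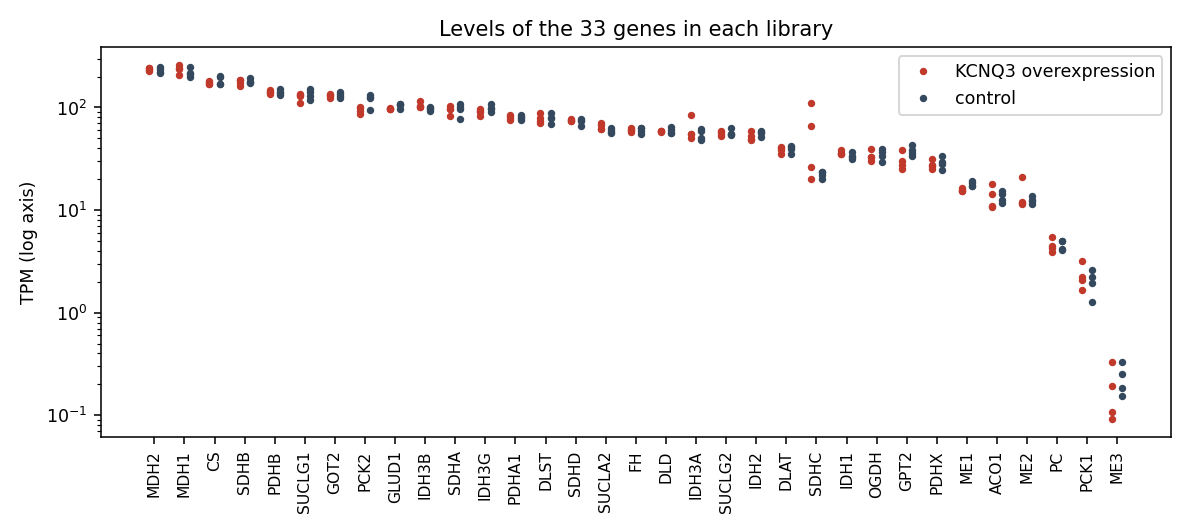
TPM of the 33 genes in each of the 8 libraries on a log axis, KCNQ3 overexpression in red and left of control, ordered by the mean over all libraries. MDH2 and MDH1 are at the left and ME3 at the right, and the overexpression libraries scatter widely for SDHC, between 19.9 and 111 TPM.

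The 5 genes of the pyruvate dehydrogenase complex, which turns pyruvate into acetyl-CoA, did not pass the test, and their log2 fold changes ran from -0.03 to 0.05. The catalytic E1 subunit gene PDHA1 averaged 133 ± 3.4 CPM under overexpression and 129 ± 3.3 CPM in controls (SD, n = 4 each). Its partner PDHB averaged 138 ± 5.9 CPM under overexpression and 134 ± 5.7 CPM in controls, a log2 fold change of 0.04 (SE 0.05) that was 1.32 (SE 0.73) over protein-coding transcripts alone. DLAT, the acetyltransferase core, had a log2 fold change of 0.04 (SE 0.04), and PDHX, which anchors the E3 subunit, -0.03 (SE 0.05). DLD, the E3 subunit that several dehydrogenase complexes share, had 0.02 (SE 0.05). PDHX and DLD share exon bases with genes on the opposite strand, APIP and LAMB1, and the sources used here do not say whether counting used strand.

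Between citrate and 2-oxoglutarate none of 7 genes passed the test, and 2 had an unadjusted p under 0.05. IDH3B, a subunit of the NAD-dependent isocitrate dehydrogenase of the cycle, had 90.1, 91.8, 91.4 and 92.0 CPM in overexpression libraries, against 84.8, 88.0, 85.1 and 84.6 CPM in control libraries. Every overexpression library lay above every control, but the log2 fold change was 0.09 (SE 0.03) and the adjusted p by edgeR was 0.176. IDH1, the cytosolic NADP-dependent enzyme, had 45.9, 49.8, 50.9 and 54.5 CPM in overexpression libraries, against 43.6, 48.6, 44.0 and 46.2 CPM in control libraries. The groups overlapped, with a log2 fold change of 0.14 (SE 0.06) and an edgeR adjusted p of 0.217. The mitochondrial counterpart IDH2 had a log2 fold change of 0.01 (SE 0.05). The other subunits of the NAD-dependent enzyme did not move with IDH3B past the test: IDH3A had -0.06 (SE 0.04), or -0.33 (SE 0.19) over protein-coding transcripts alone, and IDH3G 0.03 (SE 0.06). CS averaged 307 ± 4.3 CPM under overexpression and 318 ± 15 CPM in controls, a log2 fold change of -0.05 (SE 0.04). ACO1, the cytosolic aconitase that doubles as an iron-regulatory protein, had -0.01 (SE 0.05).

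OGDH and DLST, the first 2 enzymes of the 2-oxoglutarate dehydrogenase complex, had log2 fold changes of -0.10 (SE 0.07) and -0.05 (SE 0.04) and did not pass the test. OGDH averaged 77.0 ± 5.1 CPM under overexpression and 82.4 ± 6.8 CPM in controls.

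None of the 3 succinyl-CoA ligase genes passed the test. SUCLA2 (ENSG00000136143, chromosome 13, 47745736 to 48037968, minus strand, GRCh38) averaged 72.3 ± 2.2 CPM under overexpression and 71.5 ± 3.8 CPM in controls, a log2 fold change of 0.02 (SE 0.05) with an adjusted p by edgeR of 0.887. In TPM it was 65.6 ± 4.0 under overexpression and 59.5 ± 2.9 in controls, a log2 difference of 0.14 (SE 0.06) with a limma adjusted p of 0.384. SUCLG1, the subunit common to both enzymes, averaged 101 ± 7.4 CPM under overexpression and 103 ± 9.4 CPM in controls. SUCLG2 averaged 82.3 ± 3.5 CPM under overexpression and 80.6 ± 3.9 CPM in controls. The log2 ratio of SUCLG2 to SUCLA2 in TPM was -0.23 ± 0.16 under overexpression and -0.07 ± 0.097 in controls, a difference of -0.16 (exact permutation p = 0.171, two-sided; adjusted over 6 pairs of partner genes p = 0.300). In CPM that difference was 0.01.

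Within SUCLA2, 2 transcripts that begin at the same distal first exon had different counts in the 2 groups by the authors' estimate. Whether the RNA differed or only the way the estimate divided reads was not tested. Of 20 annotated SUCLA2 transcripts 16 had a count and 6 were tested. ENST00000646932, with 11 exons and 1389 coding bases, carried 86.6% ± 3.6 of the gene's counts under overexpression and 85.0% ± 0.83 in controls (SD, n = 4 each). As a share of the gene's TPM the order was the other way, 71.6% ± 6.2 under overexpression and 78.9% ± 1.4 in controls. It begins at the proximal first exon (chromosome 13, 48001180 to 48001273, exonic, minus strand). ENST00000646804 and ENST00000643246 begin 36.3 kb upstream, at an exon that runs from 48037606 to 48037942 in ENST00000646804 and to 48037968 in ENST00000643246. The junctions below show how each joins the first exon, in lower case, to the next one, in capitals, 15 bases a side on the gene's strand, from the GENCODE 29 transcripts.
ENST00000646932 exon 1 to exon 2: cgggctgctgctcagGTTCTGGGAAGTTCT
ENST00000646804 exon 1 to exon 2: ctccagctgtccgcgGTTCTGGGAAGTTCT
ENST00000643246 exon 1 to exon 2: ctccagctgtccgcgGGTCTTGCTCTGTTG
The capitals show that ENST00000646804 joins the same second exon as the main transcript, while ENST00000643246 goes through a different exon of 78 bases before it reaches that exon. In the annotation the coding sequence of the main transcript starts in its first exon, shown here with the start codon in capitals (chr13:48001180-48001269, minus strand, GRCh38).
ENST00000646932 coding part of exon 1: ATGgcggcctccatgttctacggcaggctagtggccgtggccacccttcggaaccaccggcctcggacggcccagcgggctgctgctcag
ENST00000646804 lacks those 90 bases, and its annotated coding sequence of 1215 bases starts in exon 2. ENST00000643246 has 3 exons, 552 bases and an annotated coding part of 27 bases that starts at base 526 and runs to its last base. Its last exon holds 111 bases, against 181 for that exon in the main transcript, so the annotated transcript ends inside it.

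ENST00000646804 had 0, 0, 0 and 0 counts in overexpression libraries, against 165, 144, 111 and 115 in control libraries. The groups did not overlap, and it was without a count in every overexpression library (edgeR adjusted p = 0.0460 over 47129 transcripts tested). With a floor of 3 counts over the group it was 171-fold lower after scaling by TMM-adjusted library totals. That figure covers counting error only and is no bound, because these zeros are estimates of how reads were divided. The estimate also gave ENST00000367975 of SDHC 0 counts in overexpression replicate 2, against 2214 to 3118 in the other libraries. ENST00000643246 had 77, 75, 71 and 57 counts in overexpression libraries, against 11, 10, 10 and 10 in control libraries. It lay above every control in all 4 overexpression libraries. By summed counts scaled by TMM-adjusted library totals it was 7.14-fold higher (exact 95% interval 5.13 to 10.2, counting error only). Its log2 fold change was 2.79 (SE 0.17), with an edgeR adjusted p of 0.0276. These were 2 of the 6 transcripts called among the 47129 tested, or 0.0127%. The call of ENST00000643246 held in 9 of 16 other settings and was lost without overexpression replicate 1 or 3 or control replicate 1, 2 or 4 (edgeR adjusted p 0.0551 to 0.0854), without a filter on low counts (0.170) and with the replicate block (0.962). That of ENST00000646804 held in 7 of 17 and was lost without any 1 of the 8 libraries (edgeR adjusted p 0.0509 to 0.196), without the filter (0.232) and with the replicate block (0.962). ENST00000646804 passed the filter on low counts through the control libraries alone. The control libraries alone would not have carried ENST00000643246 past it, so that transcript was kept through the overexpression libraries. Each was thus tested because of the group in which it was high. The main transcript had 1634, 1479, 1655 and 1594 counts in overexpression libraries, against 1751, 1602, 1528 and 1548 in control libraries. Those groups overlapped, with a log2 fold change of 0.02 (SE 0.05).

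**Figure D3:**
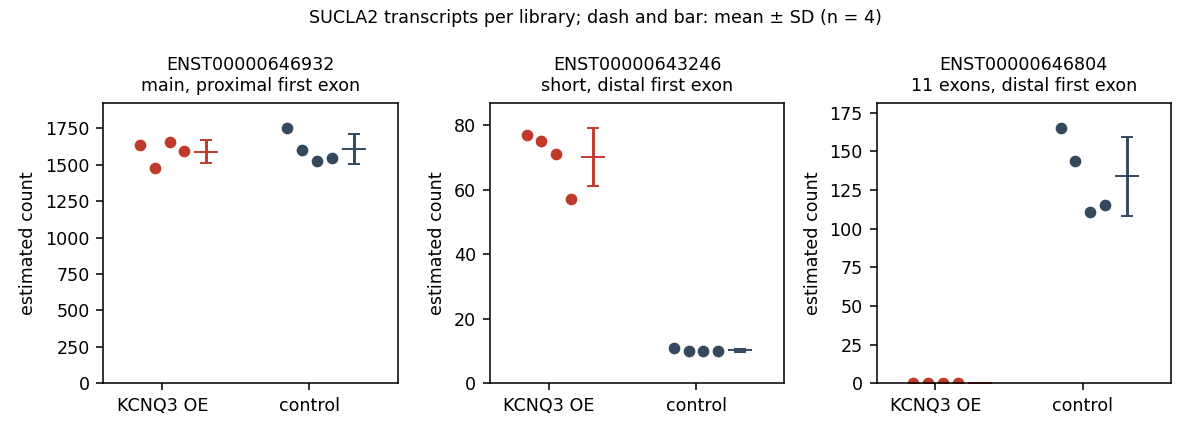
Estimated counts of 3 SUCLA2 transcripts in each library, KCNQ3 overexpression left of control, with mean ± SD (n = 4). ENST00000646932 overlaps between groups, ENST00000643246 lies at 57 to 77 under overexpression and 10 to 11 in controls, and ENST00000646804 is at 0 under overexpression and 111 to 165 in controls.

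As a share of SUCLA2 counts, ENST00000646804 made 0% under overexpression and 7.03% ± 0.96 in controls, and ENST00000643246 made 3.81% ± 0.42 under overexpression and 0.542% ± 0.013 in controls (SD, n = 4 each). Each share was apart between groups in an exact two-sided permutation test, p = 0.0286, the smallest that 4 against 4 can give. Adjusted over the 5 transcripts with at least 1% of the gene's counts, the exact permutation p was 0.0714 for both, which misses the threshold. With the other transcripts overlapping between groups, this adjustment could give no smaller value, so the miss says nothing on either share.

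Whether the distal first exon was used more or less depends on the unit. Summed over both transcripts, the counts were 77, 75, 71 and 57 in overexpression libraries, against 176, 154, 121 and 125 in control libraries. That is 2.75 ± 0.32 CPM under overexpression and 5.39 ± 0.44 CPM in controls, a log2 ratio of -0.97 (exact permutation p = 0.0286, two-sided). In TPM the order was the other way, with 7.81 ± 0.93 under overexpression and 4.58 ± 0.41 in controls, a log2 ratio of 0.77 (exact permutation p = 0.0286, two-sided). ENST00000643246 is annotated with 552 bases and ENST00000646804 with 2321, so a count on the short one weighs more in TPM. As annotated, ENST00000643246 ends inside the shared exon, so its full length, and with it its TPM, is uncertain. This sum was chosen after the transcript values were seen, and under overexpression it holds ENST00000643246 alone. Its p-values repeat the separation of the single transcripts and add no support to either direction.

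**Figure D4:**
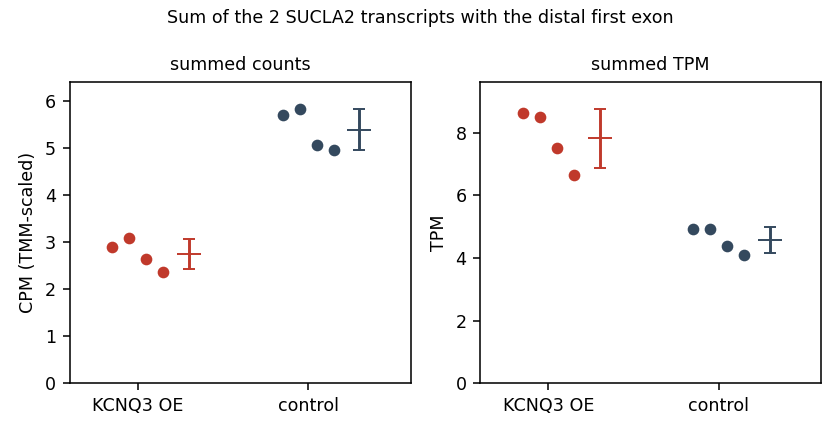
Sum of the 2 SUCLA2 transcripts with the distal first exon in each library, as CPM on the left and TPM on the right, KCNQ3 overexpression left of control, with mean ± SD (n = 4). The groups do not overlap in either panel, and overexpression is the lower group in CPM and the higher one in TPM.

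Over all 33 genes, 363 transcripts are annotated, 116 were tested, and the 2 SUCLA2 transcripts were the only ones called.

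Succinate dehydrogenase, which is both an enzyme of the cycle and complex II of the respiratory chain, had no subunit past the test. The flavoprotein subunit gene SDHA averaged 136 ± 7.0 CPM under overexpression and 138 ± 7.7 CPM in controls. Its log2 fold change was -0.01 (SE 0.05), and -0.34 (SE 0.11) over protein-coding transcripts alone, where edgeR's adjusted p was 0.195. SDHB averaged 112 ± 9.5 CPM under overexpression and 109 ± 5.0 CPM in controls. SDHD, a membrane anchor, had 60.1, 62.9, 62.4 and 66.2 CPM in overexpression libraries, against 50.7, 58.5, 57.0 and 61.1 CPM in control libraries. Those groups overlapped through 1 library each, with a log2 fold change of 0.15 (SE 0.06) and an edgeR adjusted p of 0.205. Pseudogenes bear on both: counts on SDHAP1 came to 14.5% of those on SDHA, and counts on SDHDP6 and SDHDP2 to 9.88% and 9.66% of those on SDHD.

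SDHC (ENSG00000143252, chromosome 1, 161314257 to 161375340, plus strand, GRCh38), the other membrane anchor, rested on 1 library. It had 119, 58.5, 121 and 122 CPM in overexpression libraries, against 107, 117, 111 and 115 CPM in control libraries. Overexpression replicate 2 lay far below every other library, and the log2 fold change was -0.10 (SE 0.24) with all libraries and 0.10 (SE 0.04) without that library, neither past the test. In TPM, SDHC had 26.2, 111, 19.9 and 66.0 in overexpression libraries, against 22.2, 23.6, 20.2 and 23.6 in control libraries, so the same library was the lowest by counts and the highest per length. Its transcripts were divided unlike those of the others: ENST00000367975, of 13566 bases, had 0 counts there and 2214 to 3118 in the other 7 libraries. ENST00000470743, of 832 bases, had 18, 773, 25 and 648 counts in overexpression libraries, against 6, 15, 14 and 8 in control libraries. It was high in overexpression replicates 2 and 4, and its adjusted p by edgeR was 0.805.

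Of the 3 genes from fumarate to oxaloacetate, each had a log2 fold change above 0 and none passed the test. MDH2 had 313, 321, 335 and 320 CPM in overexpression libraries, against 297, 315, 293 and 296 CPM in control libraries. Overexpression replicate 1 lay just below control replicate 2, so the groups overlapped (log2 fold change 0.10, SE 0.04, edgeR adjusted p 0.213). Fumarase (FH) had 0.06 (SE 0.04) and MDH1 0.07 (SE 0.06).

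The 3 genes with the most negative fold changes were all among those of anaplerosis and exit. PCK2 (ENSG00000100889, chromosome 14, 24094053 to 24110598, plus strand, GRCh38), the mitochondrial phosphoenolpyruvate carboxykinase, had 119, 115, 121 and 120 CPM in overexpression libraries, against 160, 152, 152 and 133 CPM in control libraries. The groups did not overlap, the overexpression libraries lay close together, and control replicate 4 was the nearest control. PCK2 averaged 119 ± 2.6 CPM under overexpression and 149 ± 11 CPM in controls (SD, n = 4 each), a log2 fold change of -0.33 (SE 0.05) with an edgeR adjusted p of 0.0382. The fold change was below 0 in each of 18 other settings, at -0.38 to -0.30, but the call was lost in 12 of them, among them without overexpression replicate 2, 3 or 4 or control replicate 1, 2 or 3 (edgeR adjusted p 0.0923 to 0.143). In TPM the groups overlapped, with 101, 86.4, 98.8 and 93.1 in overexpression libraries, against 126, 133, 124 and 94.5 in control libraries. The estimate also divided PCK2 unevenly among its transcripts within each group: ENST00000216780 took 0% to 89.9% of the gene's counts in overexpression libraries and 35.2% to 79.6% in control libraries.

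GPT2, the mitochondrial alanine aminotransferase that makes 2-oxoglutarate from glutamate, had 89.4, 75.8, 69.3 and 61.6 CPM in overexpression libraries, against 98.9, 84.3, 92.6 and 83.0 CPM in control libraries. Overexpression replicate 1 lay among the controls and the other 3 below them, and the log2 fold change of -0.28 (SE 0.11) did not pass the test (edgeR adjusted p = 0.233). ME1, the cytosolic NADP-dependent malic enzyme, had 31.8, 33.5, 34.6 and 33.1 CPM in overexpression libraries, against 33.3, 38.7, 37.5 and 37.0 CPM in control libraries. Control replicate 1 lay within the overexpression range (log2 fold change -0.14, SE 0.05, edgeR adjusted p 0.196).

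**Figure D5:**
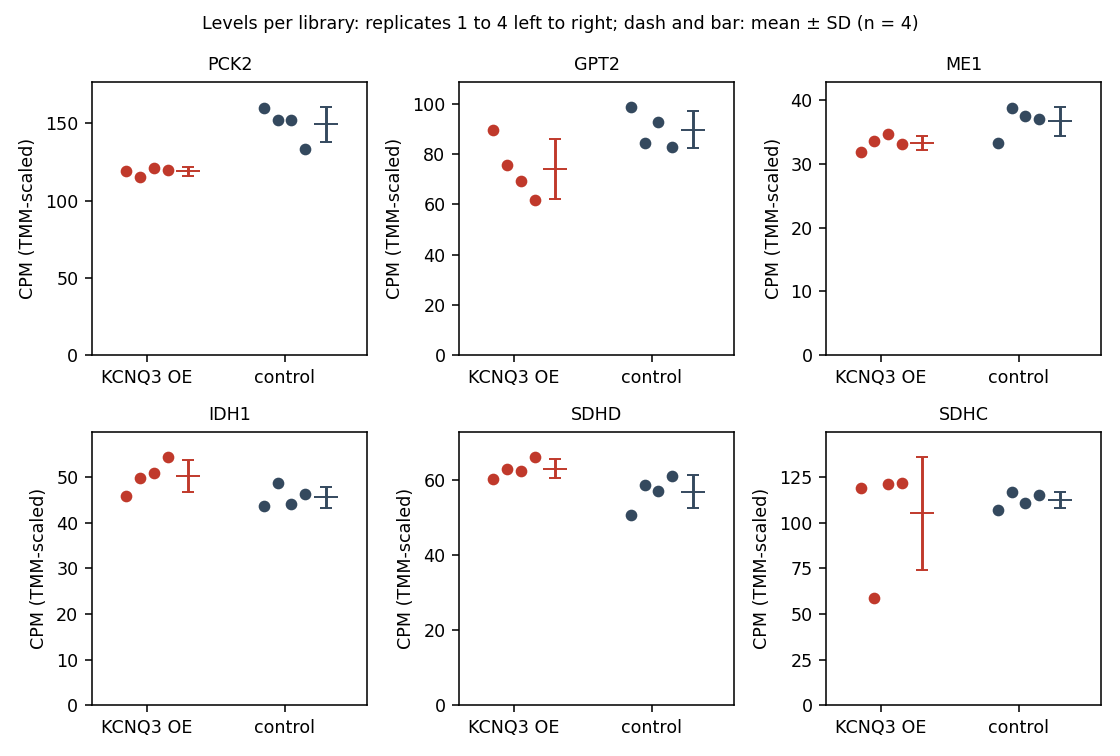
CPM of 6 genes in each library, KCNQ3 overexpression left of control, replicates 1 to 4 from left to right in each group, with mean ± SD (n = 4). PCK2 has no overlap between 115 to 121 CPM under overexpression and 133 to 160 CPM in controls, and overexpression replicate 2 stands alone for SDHC at 58.5 CPM.

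The remaining genes of this group did not pass the test. PCK1, the cytosolic counterpart of PCK2, was low, at 5.69 ± 1.5 CPM under overexpression and 5.51 ± 1.6 CPM in controls. PC, which makes oxaloacetate from pyruvate, averaged 12.2 ± 1.2 CPM under overexpression and 11.9 ± 1.0 CPM in controls. Per length, PCK2 exceeded PC by a log2 ratio of 4.40 ± 0.12 under overexpression and 4.70 ± 0.15 in controls. All 4 overexpression ratios lay below all 4 control ratios, with a difference of means of -0.30. The exact permutation p was 0.0286, adjusted to 0.171 over the 6 pairs, of which none passed. Because 0.0286 is the smallest p that 4 against 4 can give, 1 separated pair alone could not pass after this adjustment. Glutamate dehydrogenase (GLUD1) had a log2 fold change of -0.04 (SE 0.04), the mitochondrial aspartate aminotransferase GOT2 had 0.02 (SE 0.04), and the mitochondrial malic enzyme ME2 had -0.06 (SE 0.04).

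A wider list of 42 genes that feed or regulate the cycle (pyruvate carriers, pyruvate dehydrogenase kinases and phosphatases, lipoate enzymes, succinate dehydrogenase assembly factors, glutamine enzymes and mitochondrial carriers) held 41 tested genes, of which none was called by edgeR, against 0.301% of all genes. DESeq2 also called none, and at an unadjusted p under 0.05 there were 10, 7 higher and 3 lower, against 19.4% of all genes. The list's median log2 fold change was 0.05. The 4 with the smallest p included the aspartate-glutamate carrier SLC25A12 at 27.0 ± 1.0 CPM under overexpression and 24.2 ± 0.68 CPM in controls (log2 fold change 0.15, SE 0.05, edgeR adjusted p 0.127). They also included ADHFE1, at 0.669 ± 0.23 CPM under overexpression and 0.358 ± 0.13 CPM in controls. The last 2 were the cytosolic aspartate aminotransferase GOT1, with a log2 fold change of -0.13 (SE 0.05), and the assembly factor SDHAF2, with 0.23 (SE 0.09). None of the 3 had an adjusted p by edgeR under 0.164.

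Promoters of 29 of the 33 genes were matched in the RefSeq table (GRCh38.p14), each from 250 bases before to 50 after the start. Entries were not held for GPT2, OGDH, PCK1 and SDHC. The motif of NRF1, a factor known for nuclear genes of the mitochondrion, was searched on both strands and stood in 3 of the 29 promoters, against 3.05% of 27305 promoters. Those 3 sites, 30 bases each on the gene's strand with the match in capitals, are shown because 1 of them lies at the proximal start of SUCLA2.
SUCLA2 (chr13:48001292-48001321, minus strand): tgtcgcctgTGCGCCTGCGCgcggcgccga
SDHD (chr11:112086753-112086782, plus strand): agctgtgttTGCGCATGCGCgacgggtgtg
SDHA (chr5:218292-218321, plus strand): cggtgtggtGCGCAGGCGCAgtctgcgcag
The matches begin 39, 111 and 19 bases before the start, the first 2 on the gene's strand and the one in SDHA on the opposite strand. The ETS motif CCGGAAG was in 7 of the 29, against 10.67% of all promoters, and the estrogen-related receptor motif TNAAGGTCA in 1, that of SDHD, against 0.96%. The ATF4-CEBP motif TGATGNAA was in none of the 29, against 3.67% of all promoters, a share too low for its absence from 29 to tell anything. A match describes these letters in this window and is not evidence that the factor binds there. A missing match in this window is likewise not evidence that the factor does not act on the gene.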

How the data were processed

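RNA from 8 HEK293T libraries, 4 per group, was measured by sequencing. The build GRCh38.p13 and the tools StringTie 2.1.0, HISAT2 2.1.0, SAMtools 1.9, FastQC 0.11.5 and cutadapt 2.8 are listed in the submitters' processing notes. The sources used here do not give their settings, the annotation release or the use of strand. The files the authors deposited hold estimated counts per transcript, all whole numbers, and TPM per transcript, which sum to 1000000 per library. Estimates of this kind divide reads common to several transcripts, and the division can differ between libraries.

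Transcripts were joined to genes through GENCODE 29 (GRCh38): 205804 of 227751 matched, holding 98.8% to 98.9% of counts, and counts were summed per gene. The 33 genes, the wider list and the motifs were chosen with earlier results of these data known. All 33 are named; of the wider list the 4 with the smallest p are named. Values of some other genes are not reported here.

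The main test was edgeR 4.0.16 (R 4.3.3) quasi-likelihood, TMM scaling, features kept by a minimum count of 10 and total of 15, adjusted p under 0.05, over all genes or all transcripts. limma 3.58.1 on log2(TPM + 1) and DESeq2 1.42.0 were alternatives. Single values had exact permutation tests over 70 assignments, and 3 counts over a group was the floor. The tests were tested on simulated data. The planned transcript usage test (edgeR's diffSpliceDGE) called unchanged genes in simulated data about as often as it called genes here, so its calls are not used; for SUCLA2 it gave an adjusted p of 3.93e-06. The chi-square per degree of freedom between replicates ran from 9.72 to 18.6, so no library was counted as a copy of another.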

Additional observations from a re-analysis of the deposited data

Results flagged for a closer look

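Of 86 groups of 4 values checked, 8 held a library far from the other 3 by Dixon's criterion, and chance gives about 1 in 20. SDHC in overexpression replicate 2 had 58.5 CPM, with the other overexpression libraries at 119 to 122 CPM. ACO1 in control replicate 2 had 57.0 CPM, with the other controls at 49.6 to 50.5 CPM, and IDH3B in the same library had 88.0 CPM, with the others at 84.6 to 85.1 CPM. The SUCLA2 transcript ENST00000470760 took 1.53% of the gene's counts in overexpression replicate 4 and 1.05% to 1.12% in the other overexpression libraries.

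In log2 TPM ratios, IDH1 to IDH2 was -0.702 in overexpression replicate 3, with the other overexpression libraries at -0.487 to -0.444. ME1 to ME2 was -0.446 in overexpression replicate 2, with the others at 0.418 to 0.449. In that library ME2 had 20.9 TPM, against 11.5 to 11.9 TPM in the other overexpression libraries, while its CPM of 59.9 lay within theirs. SDHA to SDHB was -1.20 in control replicate 4, with the other controls at -0.824 to -0.813. PCK2 to PC was 4.22 in overexpression replicate 1, with the others at 4.44 to 4.48.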

How the results depend on the processing

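Over all genes tested, 58 were called, 35 without scaling, 1352 by DESeq2, 7, 8 and 9 by limma on log2(TPM + 1), log2(TPM + 0.1) and unfiltered log2(TPM + 1), 6 from protein-coding transcripts alone, and 8 to 378 with 1 library left out. Of the 33 genes, 1 was called, and 0 without scaling, in the 3 TPM fits, from protein-coding transcripts alone and with the replicate block, and 0 to 1 with 1 library left out. The median log2 fold change of 0.02 was -0.02 in unfiltered TPM and -0.02 to 0.03 with 1 library left out. Of 558 refits of the 31 uncalled genes, 54 turned the sign, none in a gene beyond 0.10 on the log2 scale at first; 11 genes turned in TPM, SDHC among them at 0.96 to 0.98, and SDHC turned without overexpression replicate 2. Protein-coding transcripts alone moved 6 uncalled genes by more than the replicate spread, PDHB to 1.32, SDHA to -0.34, IDH3A to -0.33, ME2 to -0.19, IDH3B to 0.15 and IDH2 to 0.11, and each TPM fit moved 14. For PCK2 adjusted p ran from 1.53e-06 to 0.456. Over all transcripts 6 were called, 521 by DESeq2, 34, 51 and 18 in the 3 TPM fits, 0 without a filter, 0 with the block and 0 to 9 with 1 library left out. Adjusted p ran from 1.31e-20 to 0.962 for ENST00000643246 and from 1.75e-16 to 0.962 for ENST00000646804. In TPM the share differences were 10.1 points for ENST00000643246, -5.92 for ENST00000646804 and -7.26 for ENST00000646932, against 3.26, -7.03 and 1.65 in counts. The summed distal transcripts, a choice made after seeing the data, reversed from -0.97 in counts to 0.77 in TPM; the unit alone was changed. The SUCLG2 to SUCLA2 difference of -0.16 was 0.01 in CPM. The replicate numbers did not pair the libraries (correlations of same-numbered libraries -0.051 to 0.073); the replicate block called 86 genes, 0 of the 33 genes (PCK2 adjusted p 0.0540) and 0 transcripts. Estimated counts near 10 per library limit what ME3 and the rarer transcripts can show.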
